A study of Mus musculus with 32 samples.

Results

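Cartilage RNA of the group labelled R1 was compared with cartilage RNA of the group labelled MMS D14, over every gene of the deposited cartilage table. The comparison used 4 of the 32 samples, with 2 in each group, and all 1606 genes of the table passed the filter on low values. The series measured RNA by sequencing in synovium (18 samples) and cartilage (14 samples) of C57BL/6 mice. The cartilage groups were Control, MMS D3, MMS D7, MMS D14, MMS D28, R1 and R2, with 2 samples each. The names MMS, R1 and R2 are not explained in the labels, which give no unit for the D numbers and no age, and which do not say whether R1 and R2 mice had also gone through the MMS model. They also do not say whether replicates came from separate animals. The p-values measure the spread between replicates of all 7 cartilage groups, fitted together, and this spread may be technical. The median absolute log2 difference between replicates ran from 0.10 in R1 to 0.27 in MMS D28 over the groups, with 0.15 in MMS D14.

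Articular cartilage is made by chondrocytes, which secrete a matrix of type II collagen, aggrecan and many smaller proteins such as chondroadherin and the cartilage intermediate layer proteins. Chondrocytes that mature toward bone switch on another set of genes, among them collagenase and the pannexin channel Panx3. In injured or osteoarthritic joints, collagenases cut type II collagen, and fibrous tissue rich in type III collagen and periostin can form at or near the cartilage.

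In R1, 12 of 28 measured chondrocyte genes were higher than in MMS D14, with Cilp2, Cytl1 and Chad at 6.56, 4.34 and 2.68 times the MMS D14 mean. Of 21 fibrous matrix genes, 10 were lower, with the means of Postn, Cthrc1 and Col3a1 in MMS D14 at 7.96, 6.80 and 4.71 times those in R1. The collagenase gene Mmp13 was 3.49 times as high in MMS D14 as in R1. Of 30 B lineage genes, 12 were higher in R1, and 5 of 6 stefin A genes were lower. The lists were chosen with earlier results of these data known, so these counts are descriptive and not an independent test. Of 1606 genes, 290 passed an adjusted p of 0.05 in limma (18.1%), 133 higher in R1 (8.28%) and 157 lower (9.78%). These shares are the background for the counts of this fit below, and fits on other samples have their own. The word "called" is used for genes past that threshold, and changes are given on the log2(signal + 1) scale, where a difference of 1 is a doubling at high signal and understates the change of low genes.

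The median change over all genes was 0.08. Called genes had a median change of 0.77 when higher and -0.83 when lower, and 38 rose and 48 fell by at least 1. Samples of R1 and MMS D14 did not overlap for any of the 290, beside 69.1% of all genes without overlap. A left-out library lowered the count more than 1.5-fold in each case, to 145 when R1 replicate 1 was the one omitted, 117 for R1 replicate 2, 125 for MMS D14 replicate 1 and 170 for MMS D14 replicate 2. Of the 290 calls, 91 held in all 4 of these fits (48 higher and 43 lower).

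**Figure D1:**
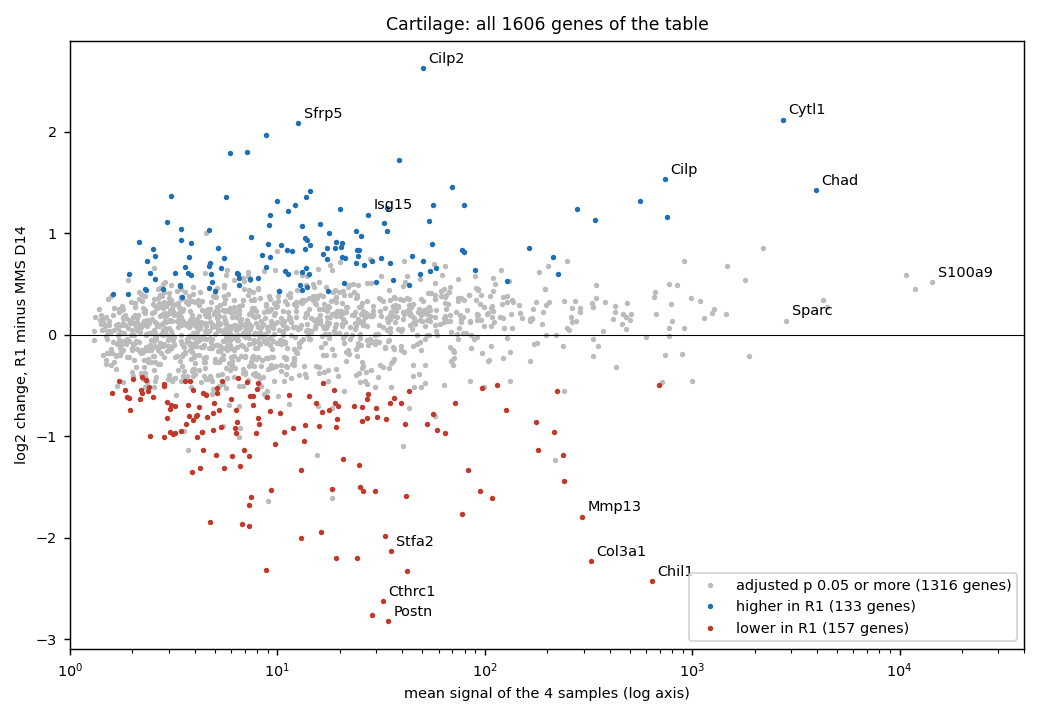
Each point is 1 of the 1606 cartilage genes, by its mean signal over the 4 samples (x, log axis) and its log2 change of R1 minus MMS D14 (y). The 133 genes called higher are blue, the 157 called lower are red, and changes run from -2.82 (Postn) to 2.62 (Cilp2).

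The unit of the cartilage signal is not stated and the table gives no read counts, so depth is unknown. Summed signal was 149830 and 145683 in the R1 samples and 114149 and 122974 in the MMS D14 samples. The table holds selected genes by a rule that is not stated: 99.0% of them were at least 1.5-fold apart between MMS D28 and Control, against 21.9% between R1 and MMS D14. Chondrocyte markers were present in all 4 samples, including Acan (aggrecan) at 104 to 141 in MMS D14 and 119 to 134 in R1. The highest signals nevertheless came from S100a9, S100a8, Ngp, Camp and Lcn2, genes of neutrophils and their precursors. Their levels come from bulk tissue, in which a change in the number of cells of a type and a change in RNA per cell cannot be told apart.

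Of 28 measured genes on the list of chondrocyte matrix and regulators, 12 were called higher in R1 and 1 lower (Chil1), and 15 were not called. Their median change was 0.68, beside 0.08 for all genes. Summed signal of the list was 9961 and 8074 in MMS D14 and 18050.1 and 18931 in R1, and 31127 and 23770 in Control. Of the 12 calls, 7 held without each of the 4 libraries.

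Cilp2 (chr8:69880369-69887687, GRCm38), which encodes a cartilage intermediate layer protein, measured 11.9 and 14.7 in the MMS D14 samples and 97.6 and 76.8 in the R1 samples. Both R1 samples were far above both MMS D14 samples and below the Control values of 186 and 151. Its log2 change was 2.62 (SE 0.24, adjusted p = 0.000179 in limma), the highest of the table. Cilp, the related intermediate layer protein, gave 421 and 343 in MMS D14 and 1044 and 1162 in R1, a change of 1.53 (SE 0.27, adjusted p = 0.00252).

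Cytl1 (chr5:37735519-37739820), a secreted cytokine-like protein of chondrocytes, measured 1051 and 999.8 in MMS D14 and 4399 and 4493 in R1. The replicates of each group were close, and the groups were well apart. The change was 2.12 (SE 0.28, adjusted p = 0.000839). Chad encodes chondroadherin, a leucine-rich matrix protein that binds collagen and cells. It stood at 2219 and 2087 in MMS D14 and at 5813 and 5730.1 in R1, and rose by 1.42 (SE 0.25, adjusted p = 0.00252). Both genes were among the 8 with the highest signal in these samples.

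Ucma, a small cartilage matrix protein, rose from 19.1 and 15.8 to 63.0 and 56.4 (change 1.72, SE 0.30, adjusted p = 0.00262). Omd, which encodes the proteoglycan osteomodulin and is also on the bone list, rose from 33.7 and 40.0 to 116 and 89.9 (change 1.45, SE 0.21, adjusted p = 0.00129). Chadl, a chondroadherin-like protein, had a change of 1.09 (adjusted p = 0.00388). The calls of all 3 held in each fit with a library left out.

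The calls of Col9a2 and Col9a3, which encode chains of type IX collagen, were weaker. Col9a2 changed by 0.69 (adjusted p = 0.0361) and Col9a3 by 0.83 (adjusted p = 0.0251), and both were lost in each of the 4 fits with a library left out, with adjusted p from 0.0653 to 0.209 and from 0.0509 to 0.189. Snorc, a small chondrocyte proteoglycan, changed by 1.13 and lost its call without R1 replicate 1 (adjusted p from 0.0233 to 0.0718 over the 4 fits). Clec3a, a cartilage lectin, changed by 1.16 and lost it without R1 replicate 2 or MMS D14 replicate 2 (0.022 to 0.0707). Chst3, a chondroitin sulfotransferase, changed by 0.88 and lost it without R1 replicate 2 (0.0185 to 0.0527).

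The most familiar chondrocyte genes were not called. Col2a1 (type II collagen) measured 489 and 448 in MMS D14 and 640.2 and 452 in R1, and Acan measured 141 and 104 against 119 and 134. Their changes were 0.20 (95% interval -0.61 to 1.01) and 0.06 (-0.46 to 0.59), and the samples of the groups overlapped for both. Prg4, which encodes the lubricant lubricin, had a change of 0.85 (adjusted p = 0.0970), Comp one of 0.42 (adjusted p = 0.253) and Sox9, the chondrocyte transcription factor, one of 0.43 (adjusted p = 0.196).

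Chil1 (chr1:134182176-134190181), a chitinase-like protein that chondrocytes secrete in inflamed joints, was the only gene of the list called lower. It measured 1228 and 937 in MMS D14 and 174 and 227 in R1, beside 218 and 159 in Control. R1 and Control samples thus overlapped, and the change was -2.43 (SE 0.24, adjusted p = 0.000179). Of the 28 genes of the list, 23 had positive changes and 5 negative ones. Among the 5, beside Chil1, were Fmod (-0.56), Col11a1 (-0.51) and Col11a2 (-0.18), none of which was called.

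**Figure D2:**
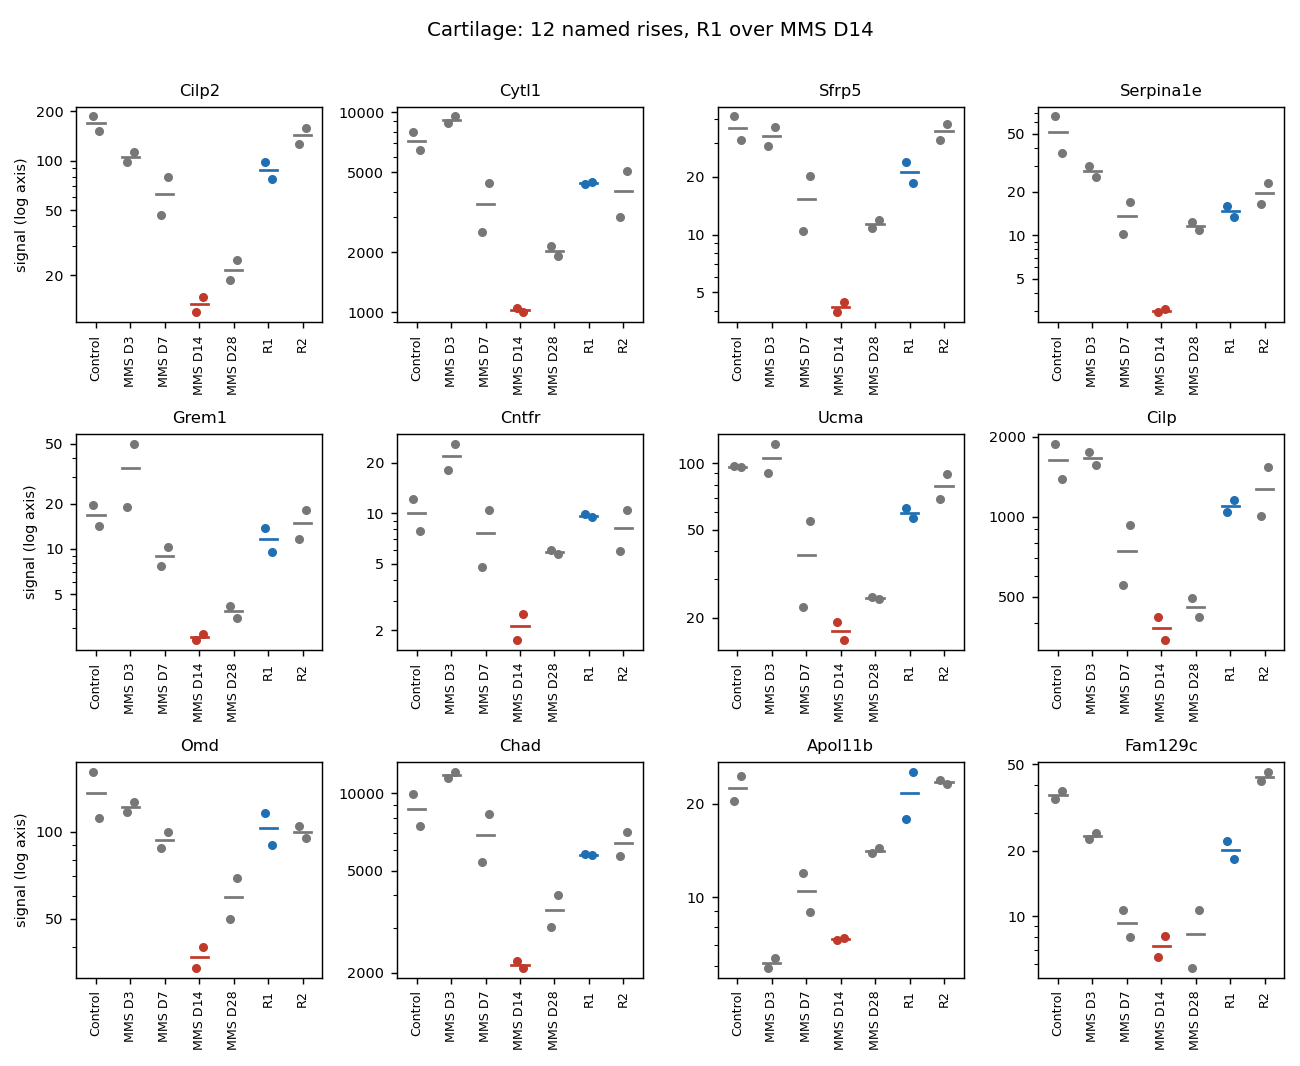
Signal of the 12 genes named for the largest rises, 1 panel per gene, in all 7 cartilage groups (y, log axis). Points are samples and lines are means of 2, with MMS D14 in red and R1 in blue. Both R1 samples lie above both MMS D14 samples in each panel, as with Cytl1 at 4399 and 4493 against 1051 and 999.8.

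Secreted antagonists and a receptor were also among the largest rises. Sfrp5, which binds Wnt proteins outside the cell and blocks them, measured 3.93 and 4.45 in MMS D14 and 23.8 and 18.5 in R1 (change 2.08, SE 0.25, adjusted p = 0.000602). Grem1 encodes gremlin, which binds and blocks bone morphogenetic proteins. It measured 2.47 and 2.73 against 13.8 and 9.52, a change of 1.80 (SE 0.35, adjusted p = 0.0045).

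Cntfr encodes the ligand-binding receptor chain for ciliary neurotrophic factor. It measured 1.74 and 2.49 in MMS D14 and 9.84 and 9.53 in R1 (change 1.79, SE 0.32, adjusted p = 0.00283). Both R1 samples were above both MMS D14 samples and overlapped Control, where Cntfr stood at 12.2 and 7.79.

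On the Wnt list, 2 of 13 measured genes were called higher (Sfrp5 and Wif1, another secreted Wnt antagonist) and 1 lower (the receptor Fzd1), with a median change of 0.15. Wif1 changed by 0.76 and Fzd1 by -0.69. The call of Wif1 was held only when MMS D14 replicate 1 was the library left out (adjusted p 0.0458 to 0.0932 over the 4 fits) and that of Fzd1 was lost in each of the 4 (0.0589 to 0.263).

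On the list of TGF-beta and bone morphogenetic protein signalling, 1 of 16 measured genes was called higher (Grem1) and 4 lower (Fstl1, Tgfb2, Bmp3 and Smad6), with a median of -0.36. Fstl1, a secreted follistatin-like glycoprotein, measured 67.9 and 58.6 in MMS D14 and 16.8 and 24.6 in R1 (change -1.59, SE 0.29, adjusted p = 0.00291). The ligands Tgfb2 and Bmp3 changed by -0.74 and -0.71 and the inhibitor Smad6 by -0.60. Of the 4 lower calls, that of Fstl1 held in each fit with a library left out, and that of Smad6 when MMS D14 replicate 2 was the one omitted (adjusted p 0.0202 to 0.138 over the 4 fits). Tgfb2 and Bmp3 lost theirs in each (0.103 to 0.198 and 0.0669 to 0.225).

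None of the 21 measured genes of fibrillar collagen and fibrous matrix was called higher, and 10 were called lower, with a median change of -0.97. Between 6 and 9 of these calls were made with a library left out, the fewest without MMS D14 replicate 1. Summed signal of the list was 3661 and 2793 in MMS D14 and 1658 and 1886 in R1, with 2580 and 2215 in Control. Both R1 sums were thus below both Control sums.

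Postn (chr3:54361109-54391037) encodes periostin, a matrix protein of healing and fibrous tissue. It measured 71.5 and 50.7 in MMS D14 and 7.13 and 8.22 in R1, a change of -2.82 (SE 0.46, adjusted p = 0.0021), the largest fall of the table. R1 samples were below the Control values of 10.4 and 11.2. Cthrc1, a secreted protein of fibroblasts in wounds, gave 59.2 and 53.3 against 8.99 and 7.56 (change -2.63, SE 0.45, adjusted p = 0.00252).

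Col12a1, a collagen that sits on the surface of fibrils, measured 37.2 and 27.3 in MMS D14 and 6.21 and 6.10 in R1 (change -2.20, SE 0.44, adjusted p = 0.00458). Aebp1, which encodes a collagen-binding protein of fibrous tissue, measured 65.5 and 41.6 against 11.2 and 13.8 (change -1.98, SE 0.34, adjusted p = 0.00252). The falls of Wisp2 (-1.50), a connective tissue growth factor family member, and Serpinh1 (-1.19), the collagen chaperone, also held without each library.

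Col3a1, the gene for type III collagen, measured 644 and 430.3 in MMS D14 and 87.6 and 140.6 in R1, with a change of -2.23 (SE 0.53, adjusted p = 0.0119). The samples did not overlap, but the call was lost when replicate 1 of either group was left out, with adjusted p from 0.0295 to 0.0926 over the fits with a library left out. Lum and Aspn, which encode small leucine-rich proteoglycans, had changes of -1.23 and -1.61 and were not called (adjusted p = 0.0823 and 0.0824).

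These fibrous genes differed between replicates of other groups. Postn measured 11.7 and 28.6 in the MMS D28 samples and 34.6 and 10.8 in the R2 samples. Col12a1 measured 4.69 and 17.0 in MMS D28 and 12.4 and 5.45 in R2. In these groups 1 sample was thus high in both genes and the other low, while the R1 replicates were close. Summed signal of the fibrous list was 1246 and 2424 in the MMS D28 samples, a range that holds both R1 sums.

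**Figure D3:**
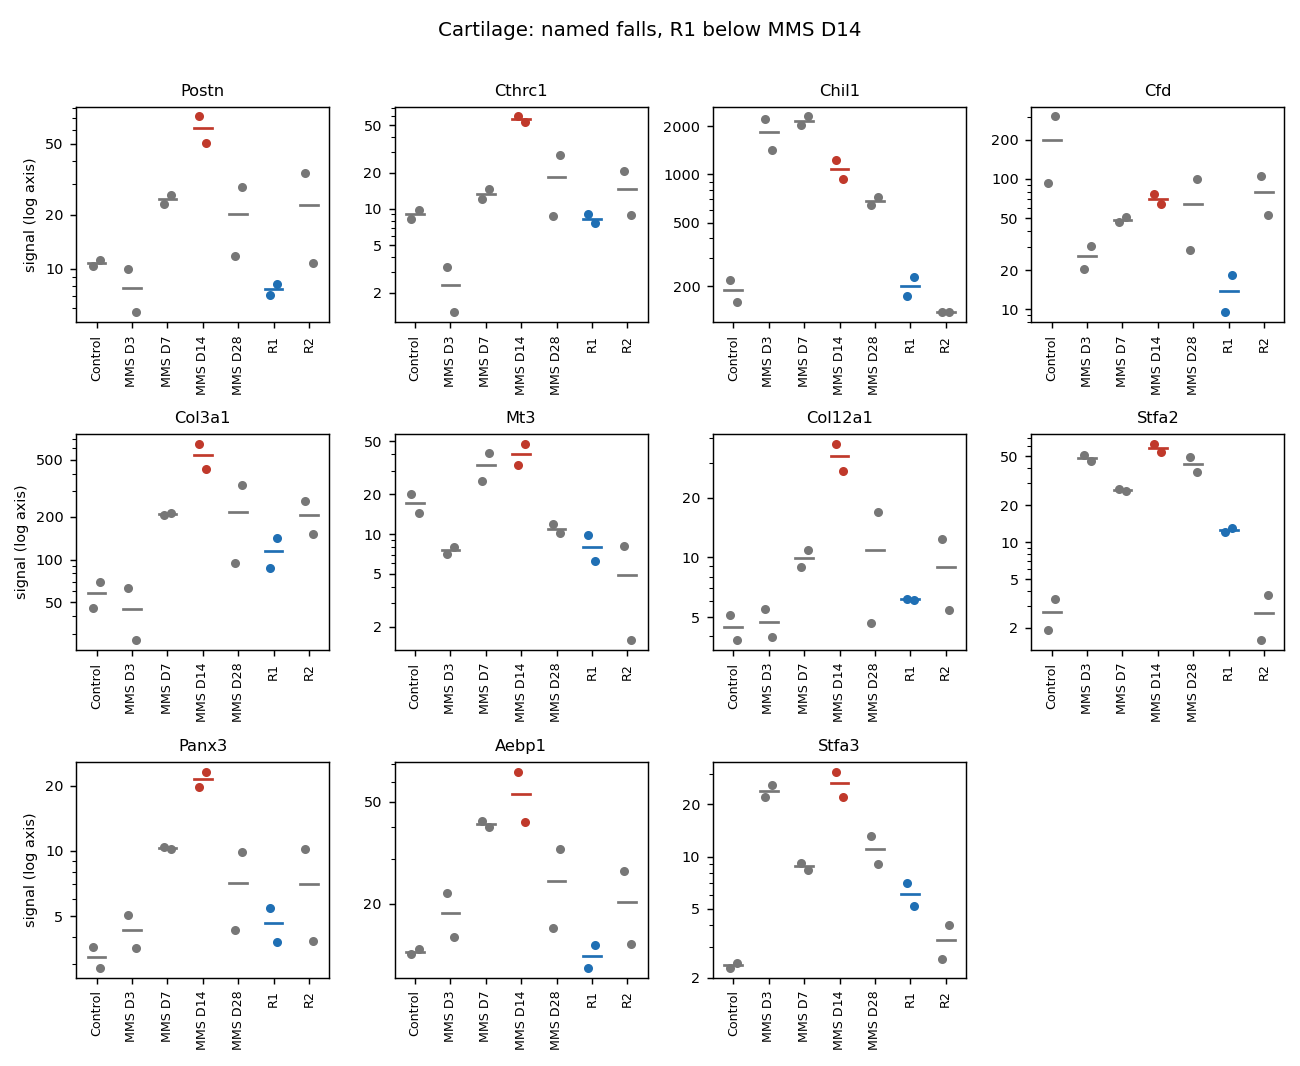
Signal of genes named for the largest falls, 1 panel per gene, in all 7 cartilage groups (y, log axis). Points are samples and lines are means of 2, with MMS D14 in red and R1 in blue. Both R1 samples lie below both MMS D14 samples in each panel, and the MMS D28 and R2 replicates are far apart for Postn, Cthrc1, Col12a1 and Aebp1.

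Markers of other tissues that could border the cartilage were read beside this result. On the adipocyte list, 4 of 9 measured genes were called lower and none higher, with a median of -1.01 and summed signals of 399 and 398 in MMS D14 and 231.0 and 231 in R1. Cfd (adipsin, complement factor D) measured 76.9 and 64.5 against 9.46 and 18.2, a change of -2.33 (SE 0.58, adjusted p = 0.0161). Its call was held only when R1 replicate 2 was the library left out, with adjusted p from 0.0381 to 0.128 over the fits with a library left out. With a library left out, 0 or 1 of the 4 adipocyte calls was made: none without replicate 1 of either group, and 1 without replicate 2 of either.

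Of the other cell types of soft tissue, 2 of 3 endothelial genes were called lower (Aplnr -1.29 and Flt4 -0.91), as was 1 of 2 pericyte and smooth muscle genes (Acta2 -1.53). Lyve1, the third endothelial gene, was not called and had a positive change (1.004, adjusted p = 0.1003), with 2.59 and 1.93 in MMS D14 and 2.48 and 11.2 in R1. None of 5 skeletal muscle genes was called, with summed signals of 21.6 and 40.6 in MMS D14 and 27.6 and 24.9 in R1. On the list of synovial lining and sublining fibroblasts, 1 of 12 genes was called higher (Dpp4, 0.37, lost in each fit with a library left out) and 1 lower (Tnfaip6, -1.84), with summed signals of 3327 and 2178 in MMS D14 and 3556 and 4823 in R1. No list member was at 0 in any sample, but the lowest value of the whole cartilage table was 0.5. The lack of 0 values thus does not show that a marker was detected. What part these tissues had in the fibrous result was not tested.

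Of 13 measured proteases and inhibitors, 5 were called lower and none higher (median -0.38). Mmp13, the main collagenase of cartilage, measured 478 and 438 in MMS D14 and 124 and 139 in R1, with 115 and 101 in Control. The R1 samples were close to Control and well below MMS D14, with a change of -1.80 (SE 0.32, adjusted p = 0.00262). Mmp19 changed by -0.81 (SE 0.15, adjusted p = 0.00351), and both calls held without each library.

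Mmp2, a gelatinase of fibroblasts, fell by 1.61 on the log2 scale (adjusted p = 0.0201) and Mmp9, a gelatinase of neutrophils and osteoclasts, by 0.49 (adjusted p = 0.0408). The calls of Mmp2 and Mmp9 were lost in each fit with a library left out (adjusted p 0.0586 to 0.126 and 0.0829 to 0.205). Mmp3 (-0.71, adjusted p = 0.199) and Mmp8 (0.73, adjusted p = 0.077) were not called. Between 2 and 3 protease calls were made with a library left out.

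The sequences just upstream of Mmp13 and Isg15 are shown because these genes are textbook targets of AP-1 and of interferon signalling and their RNA differed in opposite directions. Both were chosen after their values were seen. Each line gives the 150 bases before the gene's start, 5′ to 3′ on the gene's strand, from the RefSeq promoter table of GRCm38.p6. Capitals mark only the motif shown for that gene, AP-1 for Mmp13 and the interferon-stimulated response element for Isg15. The first is at chr9:7272364-7272513 (plus strand) and the second at chr4:156200819-156200968 (minus strand).
Mmp13: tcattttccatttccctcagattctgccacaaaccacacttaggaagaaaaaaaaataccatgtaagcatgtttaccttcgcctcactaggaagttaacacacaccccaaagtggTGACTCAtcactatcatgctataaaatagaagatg
Isg15: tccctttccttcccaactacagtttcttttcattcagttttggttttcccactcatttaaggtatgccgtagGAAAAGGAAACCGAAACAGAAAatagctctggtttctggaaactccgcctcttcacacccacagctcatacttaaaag

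The AP-1 motif TGANTCA, searched on both strands, matched once in the Mmp13 window, 35 bases before the start. It was found in 4.24% of the same windows of all 32851 promoters in the table. The interferon-stimulated response element, searched as GAAANNGAAA on both strands, gave 3 overlapping matches in the Isg15 window, 78 to 66 bases before the start, and was found in 1.59% of windows. The Mmp13 window also holds a match to this element on the other strand, tttccatttc, left in lower case. The interferon-stimulated response element thus does not separate the 2 windows. The AP-1 motif has no match in the Isg15 window. A match describes the letters only and shows neither binding nor a cause of the change.

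Isg15, a ubiquitin-like protein induced by interferon, measured 13.1 and 20.2 in MMS D14 and 36.4 and 40.3 in R1, with 39.7 and 47.5 in Control. R1 was above MMS D14 without overlap, with a change of 1.18 (SE 0.21, adjusted p = 0.00262), and the call held without each library. Of 14 measured interferon response genes, 6 were called higher and none lower, with a median of 0.40. The others were Ifi27l2a (0.97), Slfn1 (0.72), Rsad2 (0.71), Oasl1 (0.55) and Ms4a6b (0.47). Only 1 to 3 calls of the list were made with a library left out: 2 when either R1 replicate was omitted, 1 when MMS D14 replicate 1 was and 3 when MMS D14 replicate 2 was. Summed signals of the list overlapped, at 1931 and 2087 in MMS D14 and 2072 and 2084 in R1. In Control they were lower, at 1032 and 1112, unlike the values of Isg15.

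On the hypertrophic list, 4 of 10 measured genes were called lower and 1 higher, with a median of -0.25. Panx3, a channel protein of hypertrophic chondrocytes and osteoblasts, measured 19.7 and 23.1 in MMS D14 and 5.45 and 3.80 in R1 (change -2.005, SE 0.37, adjusted p = 0.00308). R1 was again near Control, where Panx3 was 3.61 and 2.88. Col10a1, the type X collagen that defines hypertrophic chondrocytes, was not called (0.49, adjusted p = 0.214), and neither were Ibsp (-0.46, adjusted p = 0.172) and Alpl (0.05, adjusted p = 0.889).

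Ihh, the Indian hedgehog ligand of prehypertrophic chondrocytes, was called higher (5.27 and 6.32 against 9.53 and 8.36, change 0.55, adjusted p = 0.023), and lost the call without any library except MMS D14 replicate 2 (adjusted p 0.0418 to 0.184). Sp7, the osteoblast transcription factor osterix, fell by 0.84 on the log2 scale (adjusted p = 0.0187) and kept its call only without R1 replicate 1 (0.037 to 0.173). Of 15 bone genes, 5 were called lower (Postn, Mepe, Sp7, Phex and Dmp1) and 1 higher (Omd), with a median of -0.12. Mepe, Phex and Dmp1, genes of osteocytes and mineralization, changed by -0.97, -0.77 and -0.68. The call of Mepe was lost without R1 replicate 2 (adjusted p 0.0223 to 0.0675 over the 4 fits), that of Phex in each fit (0.0565 to 0.15), and that of Dmp1 was held only without MMS D14 replicate 1 (0.0417 to 0.305). With a library left out, 1 to 3 of the 5 lower calls were made. Summed signals of the bone list overlapped, at 6986 and 7564 in MMS D14 and 8278 and 5762 in R1.

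**Figure D4:**
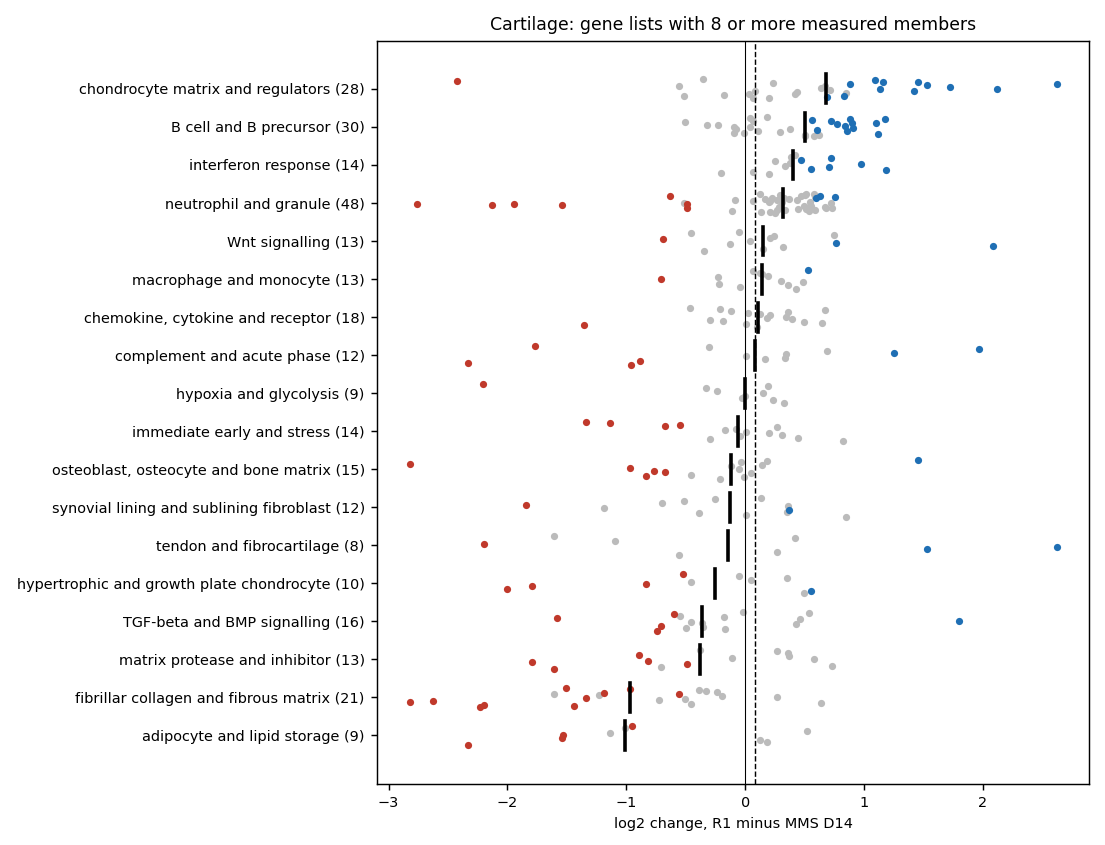
Log2 change of R1 minus MMS D14 for each measured gene of the lists with 8 or more measured members (number in brackets). Blue and red points are called higher and lower, grey points were not called, black bars are list medians and the dashed line is the median of all genes (0.08). Medians run from -1.01 for adipocyte genes to 0.68 for chondrocyte genes.

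Of the lists of marrow lineages, those of B cells (30 of 47 genes measured) and neutrophils (48 of 56) were well covered, whereas 2 of 59 erythroid genes and 2 of 21 megakaryocyte genes were in the table used here. Of 30 measured genes of B cells and their precursors, 12 were called higher in R1 and none lower, with a median of 0.50. Between 9 and 10 calls were made with a library left out, and 8 held in each such fit. Chst3, which is also on the chondrocyte list, is 1 of the 12. Spib, a transcription factor of B cells, measured 19.8 and 21.4 in MMS D14 and 47.6 and 42.9 in R1, below the 88.9 and 95.04 of Control (change 1.10, SE 0.17, adjusted p = 0.00171).

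Rag1, which cuts DNA during antigen receptor rearrangement in precursors, measured 1.47 and 1.56 against 3.70 and 3.33 (change 0.84, SE 0.17, adjusted p = 0.00548). Pou2af1, a B cell coactivator, changed by 0.90, Cd72, a B cell surface receptor, by 0.86, and Fcrla, an Fc receptor-like protein, by 0.91. Il7r, the interleukin receptor chain that early lymphocytes need, is on the T and NK cell list and changed by 1.03 (adjusted p = 0.00171). Of the 6 measured genes of that list, 1 was called higher (Il7r) and 1 lower (Cd8b1, -0.57, adjusted p = 0.00604 in limma). Fam129c, a gene of B cells that is on none of the lists, rose from 6.51 and 8.07 to 22.2 and 18.3 (change 1.36, SE 0.22, adjusted p = 0.00212).

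The B cell markers Cd79a (0.58, adjusted p = 0.0651) and Ms4a1 (0.62, adjusted p = 0.0741) were not called. Of the 30 genes, 23 had positive changes and 7 negative ones. Among the 7 were Fcer2a (-0.51, adjusted p = 0.0941) and Cd74 (-0.32, adjusted p = 0.251), both not called in limma. Summed signal of the list was 991 and 1027 in MMS D14 and 1160 and 1074 in R1, much lower than the 2756 and 2569 of R2. In the comparison of R2 with R1, which shares the R1 samples and called 13.2% of genes higher, Spib changed by 1.40 (adjusted p = 0.000275) and Fam129c by 1.08 (adjusted p = 0.00512).

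On the neutrophil list, 3 of 48 measured genes were called higher and 7 lower, with a median of 0.32. The 6 stefin A genes, cysteine protease inhibitors that neutrophils make, stood apart from the rest: 5 were called lower and none higher. Stfa2 measured 62.7 and 53.7 in MMS D14 and 11.98 and 12.97 in R1 (change -2.13, SE 0.26, adjusted p = 0.000602), with 1.93 and 3.46 in Control. Stfa3 measured 30.9 and 22.0 against 7.05 and 5.17 (change -1.94, SE 0.22, adjusted p = 0.00056).

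BC100530, which is outside the naming rule as a clone name and is given here after its values were seen, measured 62.7 and 39.0 against 6.35 and 6.53 (change -2.76, adjusted p = 0.00056). Stfa1 changed by -1.54 and held its call without each library, like these 3, whereas Stfa2l1 changed by -0.49 and lost it in each such fit (adjusted p 0.0793 to 0.242). The genes of this cluster on chromosome 16 are close copies, so their single values are uncertain where reads could fit more than 1 of them. Summed over the 6, signal was 411 and 334 in MMS D14 and 179.5 and 170 in R1.

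Of the other 42 neutrophil genes, 38 had positive changes, with a median of 0.40 for the 42, and 3 were called higher (among them Clec4d and Trem1) and 2 lower (Mmp9 and Olfm4). None of the 3 higher calls was made with any library left out, whereas the 4 samples fitted alone gave 17 higher calls on the list and the fit of Control, MMS D14 and R1 gave 19. Over all genes and in either direction, the fit of the 4 samples called 467 and that of Control, MMS D14 and R1 485, beside 290 in the main fit. Summed signal of the 42 genes was 45659 and 56352 in MMS D14 and 69600.1 and 67547 in R1. Over all 48 genes of the list it was 46070 and 56686 in MMS D14, 69780 and 67717 in R1, and 37052 and 37646 in Control. By this sum R1 was further above Control than MMS D14 was. S100a9 measured 10769 and 13028 against 16489 and 17349 (change 0.51, adjusted p = 0.182), and Ngp changed by 0.58 (adjusted p = 0.0866). Elane (0.25, adjusted p = 0.371) and Mpo (0.21, adjusted p = 0.45), made by neutrophil precursors, were not called.

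**Figure D5:**
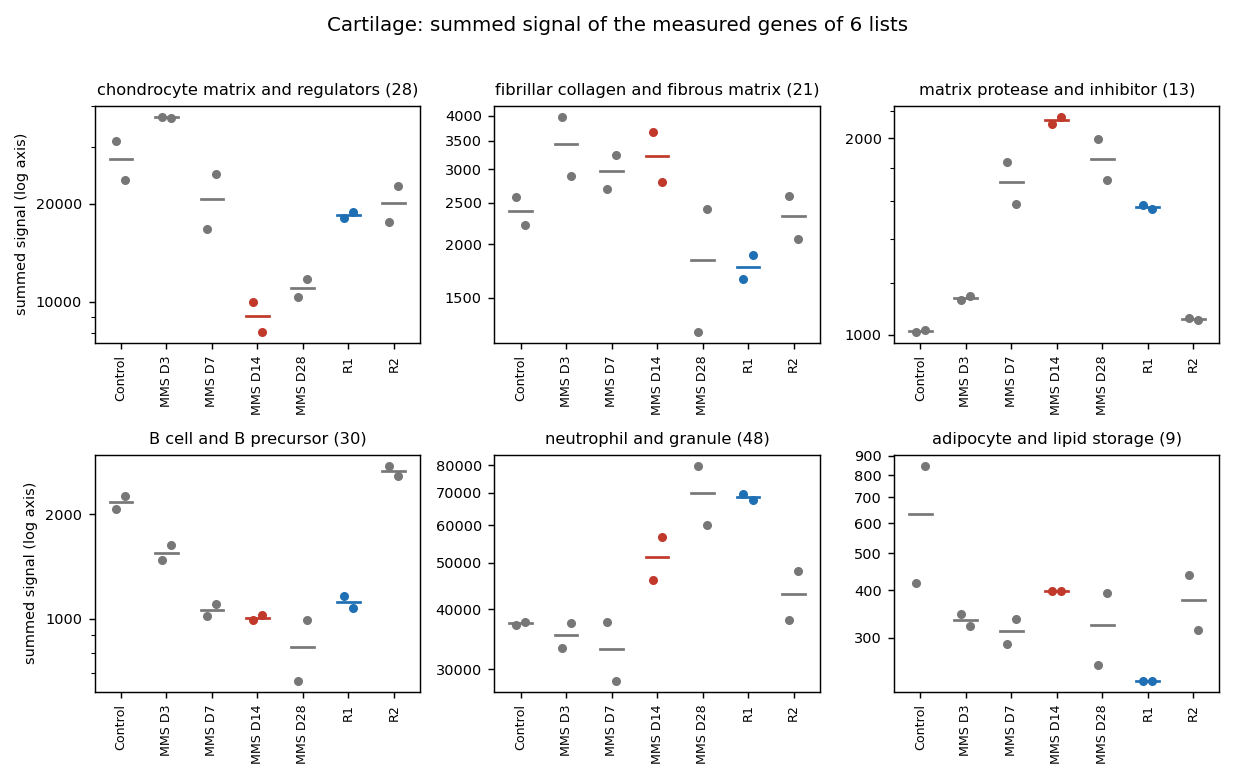
Summed signal of the measured genes of 6 lists (number in brackets) in all 7 cartilage groups (y, log axis). Points are samples and lines are means of 2, with MMS D14 in red and R1 in blue. A sum follows the most abundant genes of a list. R1 is above MMS D14 for the chondrocyte, neutrophil and B cell lists, narrowly for the B cell list. It is below MMS D14 for the fibrous, protease and adipocyte lists.

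Acute phase and stress genes were mixed. On the complement and acute phase list, 2 of 12 genes were called higher (Serpina1e and Serpina1b) and 4 lower (among them Cfd, Serpina3n and Cfb). Serpina1e, a copy of the alpha-1-antitrypsin gene, measured 2.93 and 3.09 in MMS D14 and 16.0 and 13.4 in R1 (change 1.96, SE 0.27, adjusted p = 0.000943). Reads of the Serpina1 copies may not be separable, and Serpina1b lost its call in each fit with a library left out (adjusted p 0.0515 to 0.0897). Serpina3n, an inducible serine protease inhibitor, measured 136 and 104 against 30.9 and 38.2 (change -1.76, SE 0.29, adjusted p = 0.00225). The call of Cfb, of the alternative complement pathway, was held only when MMS D14 replicate 2 was left out (adjusted p 0.0369 to 0.119), and the list's 4 lower calls became 1 or 2.

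Metallothioneins, small proteins that bind zinc and respond to metals and stress, were lower in R1. Mt3 measured 33.2 and 47.7 in MMS D14 and 9.85 and 6.23 in R1 (change -2.20, SE 0.45, adjusted p = 0.00535), and its call was lost without R1 replicate 2 (adjusted p 0.022 to 0.0581 over the 4 fits). Mt1 changed by -1.14 (adjusted p = 0.00252) and held without each library. Mt2 changed by -1.34 (adjusted p = 0.0137) and lost its call without either replicate 2 (0.026 to 0.104). On the stress list, 4 of 14 genes were called lower (Mt1, Mt2, Cdkn1a and Socs3) and none higher, and 1 to 3 were called with a library left out.

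Among chemokines, cytokines and their receptors, 1 of 18 measured genes was called, the monocyte chemokine Ccl8, which fell from 6.64 and 5.46 to 1.99 and 1.53 (change -1.35, SE 0.17, adjusted p = 0.000741). Il1b was not called (0.64, adjusted p = 0.0983). Of 13 macrophage and monocyte genes, 1 was called higher (Lilrb4a, 0.53) and 1 lower (Trem2, -0.70), and the calls were lost in all 4 and in 3 of the fits with a library left out. Per1, of the circadian clock, measured 9.41 and 8.49 against 17.5 and 18.9 (change 0.95, adjusted p = 0.00348), while Arntl and Nfil3 were not called. Apol11b, of the apolipoprotein L family, rose from 7.26 and 7.39 to 17.8 and 25.3 (change 1.42, SE 0.17, adjusted p = 0.000602). No listed gene of the cell cycle or of mitochondrial respiration is in the table used here.

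Where the R1 and MMS D14 levels lay relative to Control was read from comparisons that share these samples, so their values are given side by side only. Against Control, Cilp2 changed by -3.57 in MMS D14 (adjusted p = 1.8e-06) and by -0.95 in R1 (adjusted p = 0.00722). For Chad the changes were -1.998 in MMS D14 and -0.58 in R1 (adjusted p = 0.0536 for the latter). Chil1 changed by 2.52 in MMS D14 (adjusted p = 1.17e-05) and by 0.09 in R1 (adjusted p = 0.722), and Mmp13 by 2.08 and 0.28 (adjusted p = 0.000302 and 0.422). Stfa2 changed by 4.03 in MMS D14 and by 1.90 in R1 (adjusted p = 0.000584 for the latter). Over the whole table, 1112 genes were called between R1 and Control (69.2%) and 859 between MMS D14 and Control (53.5%).

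MMS D28 against Control shares no sample with R1 against MMS D14. Of the 133 genes called higher in R1, 112 (84.2%) had a lower mean in MMS D28 than in Control, beside 896 (55.8%) of all 1606. Of the 157 called lower in R1, 55 (35.0%) had a higher mean in MMS D28 than in Control, beside 710 (44.2%) of all. Since 99.0% of the table's genes were at least 1.5-fold apart between MMS D28 and Control, these backgrounds are those of the table and not of all genes, and the counts were not tested.

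The same groups were compared in synovium, with 3 samples each, in a table that was normalised separately. Over the synovium table, 63.2% of genes were called higher and 25.8% lower. Of the 240 genes in both tables, 133 (55.4%) were called higher and 83 (34.6%) lower in synovial R1. Of the 16 called higher in cartilage, 11 were called higher and 4 lower in synovium. Of the 40 called lower in cartilage, 26 were called lower and 11 higher. Cthrc1 (-3.20 in synovium, -2.63 in cartilage), Postn (-1.68 and -2.82) and Col3a1 (-1.25 and -2.23) were called lower in both. Cilp was called lower in synovium (-1.02) and higher in cartilage (1.53), and Cfd higher in synovium (1.53) and lower in cartilage (-2.33). A difference between the tissues was not tested.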

How the data were processed

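RNA of synovium and cartilage was sequenced from C57BL/6 mice. Per the submitters' processing notes, HISAT2 and mm10 were used for alignment. The cartilage table deposited by the authors holds normalised signal in a unit that no source used here gives, and the deposited synovium table holds FPKM, per the file headers. Neither gives read counts, so depth is unknown, and the number of replicates limits the precision.

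Values were used as log2(value + 1), without further scaling. Genes needed a value of at least 1 in at least 2 samples, which removed none. All 7 cartilage groups were fitted in limma 3.58.1 (R 4.3.3) with a variance trend, with Benjamini-Hochberg adjustment over all 1606 genes. Synovium was fitted likewise with its 18 samples. No pair of cartilage samples shared more than 0.560% of values. The script was tested on simulated data.

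Genes were named by a rule: called, no overlap between samples, a mean of the 4 samples above the 25th percentile, no predicted symbol, and then the 12 largest changes in each direction. The 8 highest genes and members of 33 gene lists could also be named. The members and lists were chosen with earlier results of these data known. Gene positions came from GENCODE vM21 (GRCm38), and 1226 of the 1606 genes matched an entry of the RefSeq promoter table. Wisp1 and Wisp2 are Ccn4 and Ccn5 there. Some items that these steps cover are not reported here. Alternatives were another pseudocount, other filters, centring on the sample median, no variance trend, fewer groups, a replicate block, a log2 change of at least 1, and each library left out.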

Additional observations from a re-analysis of the deposited data

How the results depend on the processing

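The precision rests on 2 samples a group, and the unit and depth of the signal are unknown. With the 4 samples alone, 467 genes were called (249 higher and 218 lower), and with Control, MMS D14 and R1 485 (261 higher and 224 lower). Asking for a log2 change of at least 1 left 86 (38 higher and 48 lower). With a library left out, 117 to 170 genes were called, 58 to 67 higher and 58 to 110 lower, and 51 to 70 list members. The cause of these shifts was not tested beyond the fewer samples or stricter threshold that define them.

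Replicate numbers are shared between groups, but nothing in the labels pairs the samples. Deviations of same-numbered MMS D14 and R1 samples correlated at -0.256, within the range of -0.508 to 0.422 over the 21 pairs of groups. With a replicate block, 247 genes were called, and with the numbers crossed, chosen after seeing the data, 246.

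No called gene changed sign in any setting. Of the 24 genes named for their change, 21 kept the call in every alternative, and of their 312 values 306 did and 6 did not (Cfd without 3 libraries, Col3a1 without 2 and Mt3 without 1). Uncalled changes near 0 crossed it with a library left out: Acan ranged from -0.15 to 0.28, Col2a1 from -0.049 to 0.45 and Sparc from -0.064 to 0.34.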

Other observations

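Several further genes, outside the naming rule and the lists and chosen after their values were seen, changed with calls that held without each of the 4 libraries except where stated. Gli1, the transcription factor that Hedgehog signalling induces, measured 4.69 and 4.72 in MMS D14 and 11.2 and 9.16 in R1 (log2 change 0.96, SE 0.17, adjusted p = 0.00252 in limma). Gas1, a cell surface protein that binds Hedgehog ligands, measured 48.5 and 43.5 against 112 and 113 (change 1.28, SE 0.20, adjusted p = 0.00181). Cdon, another Hedgehog-binding surface protein, changed by 0.80 (adjusted p = 0.0187) and lost its call without R1 replicate 1, R1 replicate 2 or MMS D14 replicate 2 (adjusted p 0.0374 to 0.128 over the 4 fits).

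Mfge8, a secreted protein that marks dying cells for uptake, measured 195 and 138 in MMS D14 and 398 and 381 in R1 (change 1.24, SE 0.22, adjusted p = 0.00252). Irf4, a transcription factor of lymphocytes, rose by 0.90 (adjusted p = 0.0013) and Bach2, another, by 0.72 (adjusted p = 0.00388). Cav1, the main protein of caveolae, fell from 42.9 and 28.5 to 12.3 and 15.5 (change -1.28, SE 0.21, adjusted p = 0.00212). Vdr, the vitamin D receptor, changed by -1.05 (adjusted p = 0.00545) and lost its call without R1 replicate 2 (adjusted p 0.0208 to 0.0642).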
